A study of Mus musculus with 9 samples.

Results

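The proteasome is the barrel-shaped protease that degrades most ubiquitin-tagged proteins in the cell. The genes examined here are its constitutive subunits, taken as every row of the table named Psma, Psmb, Psmc or Psmd with a number, apart from the 3 immunoproteasome genes Psmb8, Psmb9 and Psmb10. Of the 36 matching rows, 34 had a mean of at least 1 FPKM over all 9 libraries and form the set, among 10794 genes that reached this level and 23231 in the table. FPKM is the number of fragments scaled to the length of the gene and the depth of the library, so levels are per length. The gene lengths behind the table are not given in the sources used here. Levels set side by side between genes therefore depend on lengths that could not be checked. The 34 comprise 14 core genes (7 Psma and 7 Psmb), 6 ATPase genes (Psmc) and 14 non-ATPase genes (Psmd). Outside the set stood Psma8, an alpha subunit of the testis, at a mean of 0.0523 FPKM, and Psmb11, a beta subunit of the thymus, at 0.00165 FPKM. The lowest gene inside it was Psmd9, at a mean of 4.46 FPKM.

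All 9 libraries were made from total RNA of tibialis anterior, a fast muscle of the lower hind leg, of C57BL/6 mice that were 6 months old. Every muscle had been electroporated with siRNA: 3 libraries with a non-targeting control siRNA, 3 with construct 5 against Ubr4 and 3 with construct 7 against Ubr4. Electroporation delivers siRNA transiently, and the share of fibres that took it up, the time to collection and the sex of the mice are not given in the sources used here. Ubr4 encodes a very large ubiquitin ligase of the N-degron pathway, which hands proteins with certain N-terminal residues to the proteasome, and the series' title ties it to the size of muscle fibres. The labels do not say whether libraries came from separate animals, so each p-value below measures only the spread between samples, which may be technical.

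Ubr4 itself stood at 7.82, 10.3 and 9.09 FPKM in the controls, 3.61, 3.80 and 2.73 with construct 5 and 2.25, 2.58 and 3.07 with construct 7. Every siRNA library lay below every control, with log2 changes of -1.20 (SE 0.129, limma adjusted p = 0.0168) and -1.47 (SE 0.129, limma adjusted p = 0.00882). The calls depended on single libraries: without control replicates 2 and 3 limma's adjusted p was 0.0629 and 0.0941 with construct 5 and 0.0598 and 0.0877 with construct 7, without construct 5 replicate 1 it was 0.0956 with construct 5, and without construct 7 replicate 2 it was 0.0736 with construct 7. Log2 changes here and below are differences in log2(FPKM + 1). Skeletal muscle transcripts such as Acta1 and Ckm, skeletal actin and muscle creatine kinase, averaged 20137 and 13549.7 FPKM in the controls and marked the tissue the labels name. Depth recovered from the steps between low values ran from 29300000 to 45600000 reads a library, at which 3 reads on a gene of 1 kilobase give 0.0658 to 0.102 FPKM, a floor for counting error only. For the 33 subunit genes whose length could be looked up, the fewest reads were about 189, on Psmd10, a counting error of 7.27%.

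In the complex, a core of stacked rings encloses the proteolytic sites. The outer rings are built of alpha subunits (Psma), which gate the entrance, and the inner rings of beta subunits (Psmb), of which Psmb5, Psmb6 and Psmb7 carry the catalytic threonines. A regulatory particle caps the core: its base holds a ring of ATPases (Psmc) that unfold substrates and the large scaffold and ubiquitin-binding subunits Psmd1, Psmd2 and Psmd4, and its lid holds further Psmd subunits around the deubiquitinase Psmd14. Psmd5, Psmd9 and Psmd10 share the name but are assembly chaperones that leave before the particle is finished, so 3 of the 34 genes are not parts of the mature proteasome. In many cells subunit genes are transcribed together under Nfe2l1 and related factors, through antioxidant response elements near their start sites, and muscle wasting is a setting in which the whole family is known to be raised.

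Since the family is known for shared control at the promoter, the windows from 250 bases before to 50 after the RefSeq start (build GRCm38.p6) were searched for the core of the antioxidant response element, TGACNNNGC, and for the CCAAT box, CCAAT, each on both strands. No window of the family held both motifs, so no matches overlapped, and a match is a description of letters, not of a bound site. Windows were found for 28 of the 34 genes, 30 windows in all. The response element core lay in 5 of the 30 (16.7%), beside 12.4% of all 32851 windows, and the CCAAT box in 11 (36.7%), beside 37.4%. Both shares were near those of all windows. The stretches below are the upstream sequence around the 5 response element matches, in the direction of the gene, with the match in capitals (the reverse complement of the motif in Psmc6 and Psmd12). They are shown because they include 2 catalytic subunits and Psmc6, the ATPase gene whose change is described further on.
Psmb5: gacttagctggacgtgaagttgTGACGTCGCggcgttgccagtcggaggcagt
Psmb6: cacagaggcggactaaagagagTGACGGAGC
Psmc6: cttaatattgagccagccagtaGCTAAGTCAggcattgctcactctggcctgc
Psmd9: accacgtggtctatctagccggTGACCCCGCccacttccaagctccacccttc
Psmd12: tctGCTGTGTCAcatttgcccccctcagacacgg
The Psmb5 stretch is chr14:54618012-54618064, minus strand, with the match starting 47 bases before the start. The Psmb6 stretch is chr11:70525326-70525356, plus strand, with the match starting 9 bases before the start. The Psmc6 stretch is chr14:45329575-45329627, plus strand, with the match starting 227 bases before the start. The Psmd9 stretch is chr5:123228137-123228189, plus strand, with the match starting 31 bases before the start. The Psmd12 stretch is chr11:107479278-107479311, plus strand, with the match starting 247 bases before the start.

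Psma1 and Psma2, alpha subunits whose changes also come up below, held no response element core in their windows but did hold the CCAAT box, marked by capitals here; they were picked after their values were seen.
Psma1: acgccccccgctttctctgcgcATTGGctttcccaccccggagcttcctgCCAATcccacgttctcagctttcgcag
Psma2: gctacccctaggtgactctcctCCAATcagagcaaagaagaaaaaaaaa
The Psma1 stretch is chr7:114276188-114276264, minus strand, with one box on each strand, and the Psma2 stretch is chr13:14613166-14613214, plus strand. The window of Psma5 held neither motif.

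In control muscle the subunits of this single complex did not share a level in FPKM. Psmb7, the beta subunit with trypsin-like activity, was highest at 161 ± 4.87 FPKM (mean ± SD, n = 3), and Psmd9 lowest at 4.52 ± 0.110 FPKM (SD, n = 3), a ratio of 35.6. Without the 3 assembly chaperones the lowest was Psmd11, a lid scaffold subunit, at 13.6 ± 0.723 FPKM (SD, n = 3), 11.9 times below Psmb7. The median level was 40.1 FPKM for core genes, 54.3 for ATPase genes and 27.2 for non-ATPase genes. Among the ATPases the highest, Psmc5, stood 3.70 times above the lowest, Psmc2, against ratios of 9.59 in the core and 22.6 among the Psmd genes. The Psmd median and ratio include the 3 chaperones. Without them the Psmd genes ran from 102 FPKM (Psmd8) to 13.6 FPKM (Psmd11). Such a ratio also tends to grow with the number of genes, and there are 6 ATPase genes against 14 in each other class. Whether the classes differed in evenness was not tested.

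Down the order of the 34 control means, the libraries of 10 of the 33 neighbouring pairs did not overlap. Psmb7 stood clear of Psmd8, a lid subunit, at 102 ± 16.95 FPKM (SD, n = 3). The 10 genes from Psmd8 down to Psmc3 (Psmd8, Psma6, Psmc5, Psmb1, Psmb4, Psmd7, Psmc1, Psmb5, Psmb6 and Psmc3) ran from 102 to 68.4 FPKM with each overlapping the next. A gap set them off from Psmd2 and Psmd6, at 55.3 and 51.9 FPKM, and another set those off from the 10 genes between Psmb2 at 41.7 and Psmb3 at 30.1 FPKM (with Psmc6, Psmd12, Psma4, Psmd4, Psmc4, Psma5, Psmd1 and Psma1). Psma2, Psma7, Psmd13, Psmc2, Psmd3, Psmd14, Psma3 and Psmd11 followed, from 26.4 down to 13.6 FPKM. The chaperones Psmd10, Psmd5 and Psmd9 lay last, between 4.52 and 4.78 FPKM, and overlapped one another. Control libraries varied little for most genes, with a median coefficient of variation of 4.53%, and most for Psmd8 at 16.6%. Psmb7-ps2, a processed copy of Psmb7 with a row of its own, never exceeded 0.0416 FPKM; how reads shared with such copies were counted is not given in the sources used here, nor is the strand of the libraries, so overlapping genes are uncertain.

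**Figure D1:**
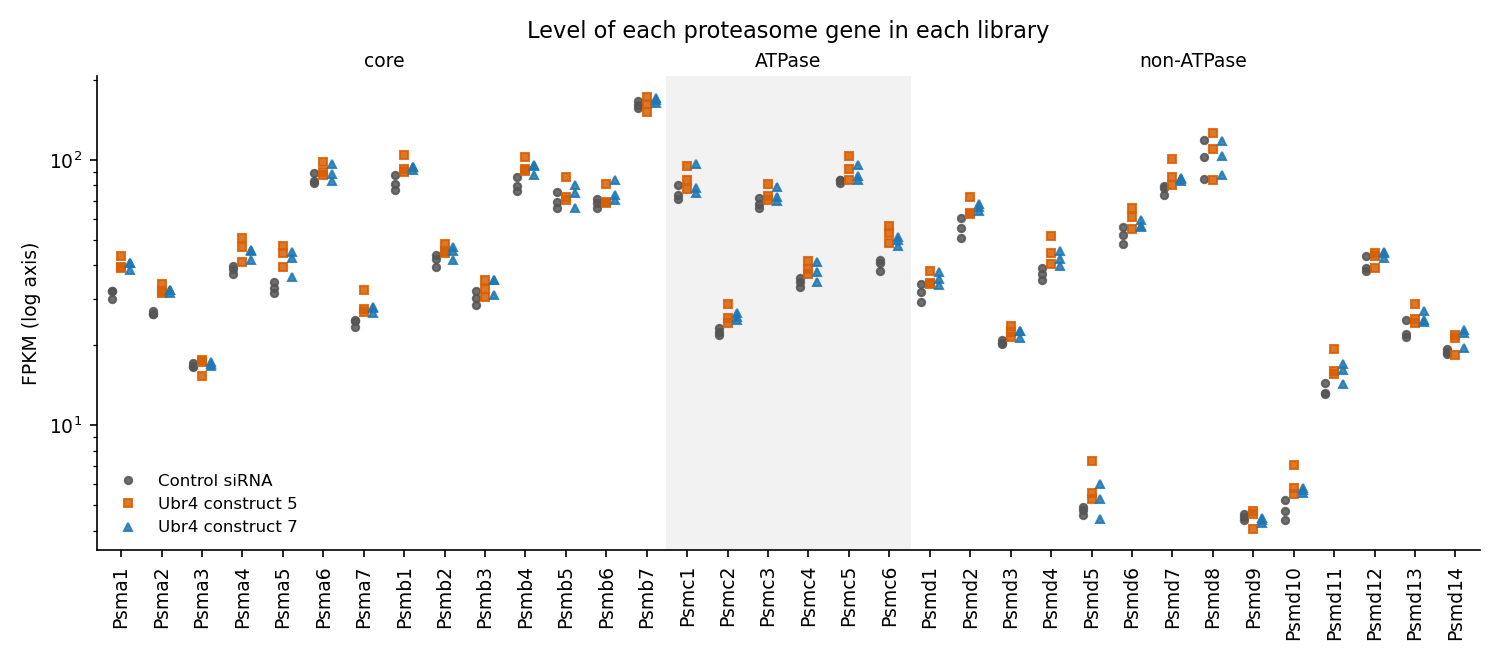
Level of each of the 34 proteasome genes in each of the 9 libraries, in FPKM on a log axis, with 3 points per gene and group and genes ordered by class. Psmb7 lies at the top, at 161 FPKM in the controls, and the chaperones Psmd5, Psmd9 and Psmd10 lie apart at the bottom, at up to 7.30 FPKM.

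Summed over the family, proteasome transcripts came to 1553, 1683 and 1559.8 FPKM in the 3 controls, 1966, 1669.9 and 1767 with construct 5 and 1675, 1855 and 1764 with construct 7. Control replicate 2 was the highest control, and construct 5 replicate 2 and construct 7 replicate 1 fell just below it, so the groups overlapped. The group means were 1599 ± 72.8, 1801 ± 151 and 1764 ± 90.03 FPKM (SD, n = 3), the siRNA groups at 113% and 110.4% of the control. The 3 classes shared this pattern. The core sum went from 789 ± 29.03 to 881 ± 60.1 and 873 ± 38.9 FPKM (SD, n = 3), and here every siRNA library exceeded every control. The ATPase sum went from 324 ± 11.2 to 371 ± 31.96 and 359 ± 25.8 FPKM (SD, n = 3), again without overlap. The non-ATPase sum went from 485 ± 33.7 to 548 ± 59.5 and 533 ± 29.2 FPKM (SD, n = 3), with control replicate 2 above 1 library of each siRNA group. After median-ratio scaling, described further on, no class was free of overlap: the core sums became 818 ± 34.7, 830.2 ± 39.9 and 888 ± 44.6 (SD, n = 3), with 1 of 3 construct 5 libraries and 2 of 3 construct 7 libraries above every control. The ATPase sums became 336 ± 11.6, 349.8 ± 24.8 and 365 ± 27.2 (SD, n = 3), with 2 and 2 of 3 above every control. In bulk muscle, more cells of a type and more RNA per cell cannot be told apart.

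Gene by gene, construct 5 replicate 1 exceeded the control mean for 34 of 34 genes, replicate 2 for 29 and replicate 3 for 32. With construct 7 the counts were 28, 33 and 32. The controls themselves gave 8, 30 and 10, so control replicate 2 was high across the family. Construct 5 replicate 1, the highest library for the family, is also the one at the far end of the first principal component of all genes.

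**Figure D2:**
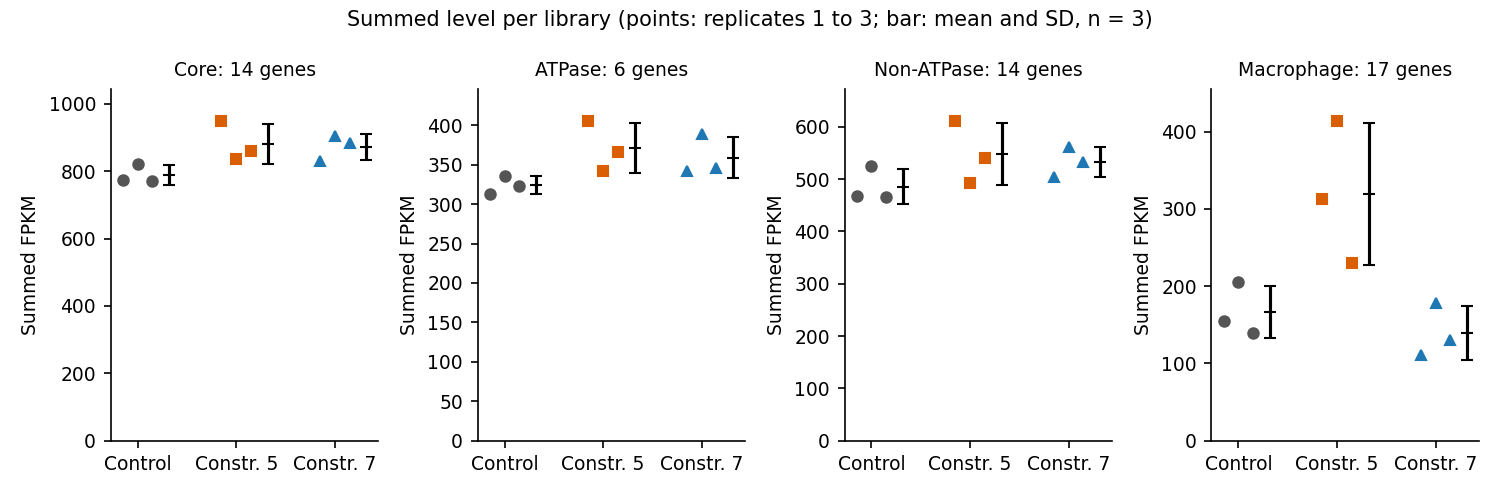
Summed FPKM per library for the core, ATPase and non-ATPase genes and for 17 macrophage markers, with the mean and SD (n = 3) beside the points. The 3 proteasome classes average between 109.7% and 115% of the control in both siRNA groups. The macrophage sum runs from 139.7 to 205 FPKM in the controls, from 229.8 to 414 with construct 5 and from 111 to 178 with construct 7.

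Set against the controls, construct 5 gave 32 of 34 genes a positive value (median log2 change 0.18), and construct 7 gave 33 (median 0.15). limma, fitted on all 10794 genes over the 9 libraries, called 4 of the 34 higher with construct 5 at a Benjamini-Hochberg adjusted p under 0.05, namely Psma1, Psma2, Psma5 and Psmc6, and 0 lower. Of all genes tested, 4.67% were called higher in that comparison. With construct 7 limma called 0 of the 34, as it called 0% of all genes higher; at an unadjusted p under 0.05, 10 of the 34 were higher with construct 7, against 5.84% of all genes, and 16 with construct 5, against 28.5%. For the mean of both constructs limma called 0 of 34 and again 0% of all genes higher, with 16 of 34 higher at an unadjusted p under 0.05 against 16.1% of all genes. The 4 calls with construct 5 rested on small margins. Leaving out any of the 3 controls, construct 5 replicate 1, construct 5 replicate 2 or construct 7 replicate 3 left 0 of the 34 called by limma, leaving out construct 5 replicate 3 left 1 (Psma1), and leaving out construct 7 replicate 1 or 2 left 4. Psma1, Psma2, Psma5 and Psmc6 kept a positive sign in each of the 28 alternatives tried. All their construct 5 libraries lay above all controls, so leaving out a library could not turn the sign as deposited, and this adds no support. Over the family, 18 of the 34 genes kept the same direction with construct 5 and 28 of 34 with construct 7. Several of the alternatives leave the group means as they are and could not turn a sign. The share over all genes was not counted, so these counts have no background.

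The median over all genes tested was 0.13 with construct 5 and 0.02 with construct 7, and 23 and 31 of the 34 genes lay above it. Libraries were also rescaled by the median ratio of all genes, which moves the median of all genes to 0.02 and -0.0015. On that scale the median of the 34 was 0.04 with construct 5, where 22 lay above 0 and 12 below, and 0.12 with construct 7, where 31 lay above and 3 below. limma then called 0 of the 34 in either comparison. At an unadjusted p under 0.05, 5 and 8 were higher, but the share of all genes was not counted on that scale, so these counts have no background. Counted without a model, all 3 libraries exceeded all 3 controls in 20 of 34 genes with construct 5, beside 33.0% of all genes, and in 17 of 34 with construct 7, beside 10.5%. After rescaling these counts were 5 of 34 beside 15.7% of all genes, and 11 of 34 beside 8.31%. In 0 of the 34 did all libraries of either construct fall below all controls, beside 560 of all 10794 genes with construct 5 and 676 with construct 7. Those shares are small, so 0 of 34 is near the background. Both comparisons share the 3 control libraries, so their values are given side by side and are not independent of each other.

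**Figure D3:**
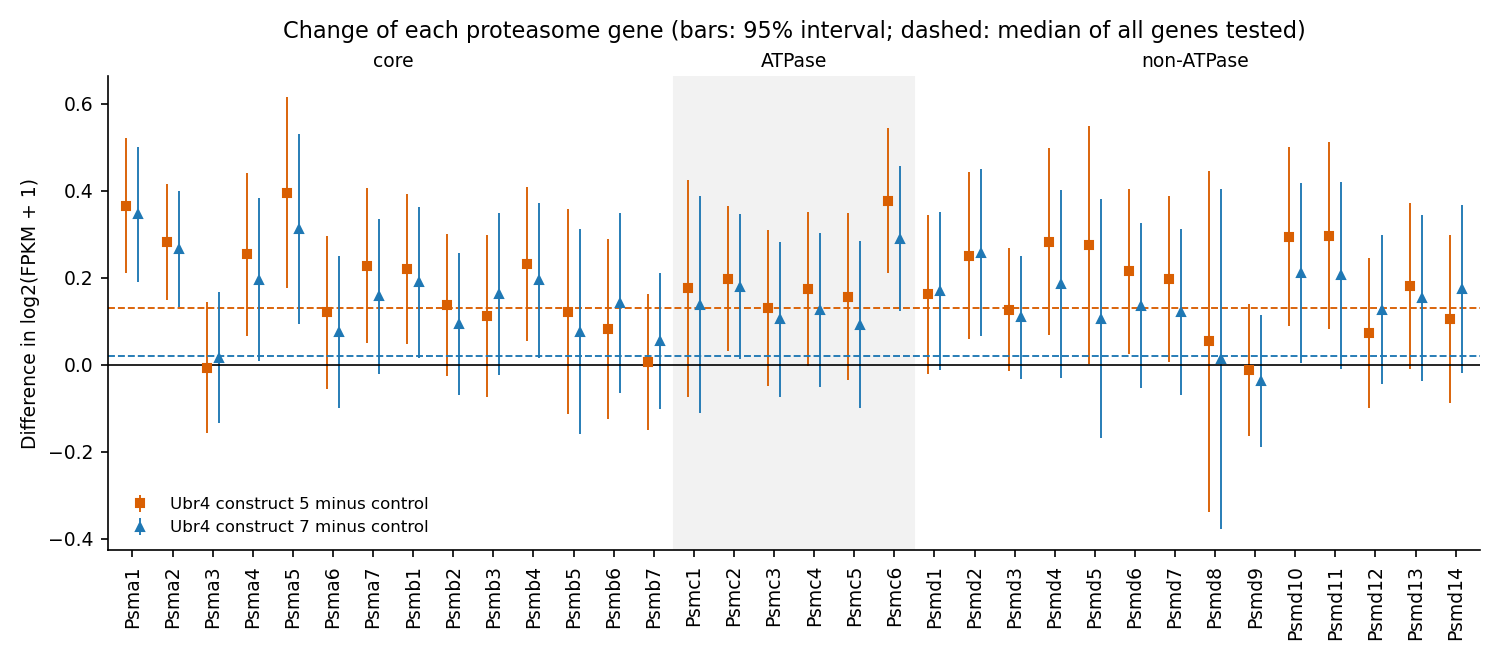
Difference in log2(FPKM + 1) from the controls for each proteasome gene with construct 5 (squares) and construct 7 (triangles), with 95% intervals from limma, and the median of all genes tested as a dashed line for each construct. The values run from -0.01 to 0.40 with construct 5 and from -0.04 to 0.35 with construct 7, and Psma1, Psma2, Psma5 and Psmc6 are the highest 4 with construct 7 and, for Psma1, Psma5 and Psmc6, the highest 3 with construct 5.

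The alpha ring held 3 of the 4 called genes. Psma1 stood at 31.9, 29.8 and 32.1 FPKM in the controls, 43.4, 39.4 and 39.1 with construct 5 and 40.8, 38.3 and 40.9 with construct 7. Every library with either construct lay above every control, and the siRNA means were 129.8% and 128% of the control. limma gave Psma1 a log2 change of 0.37 with construct 5 (SE 0.0689, adjusted p = 0.0406) and 0.35 with construct 7 (adjusted p = 0.259). Psma2, another subunit of the ring, stood at 26.3, 26.1 and 26.9 FPKM in the controls, 33.9, 31.4 and 31.9 with construct 5 and 31.5, 32.2 and 32.4 with construct 7. Controls were tightly grouped and again wholly below both siRNA groups, with log2 changes of 0.28 (SE 0.0592, limma adjusted p = 0.0441) and 0.27 (limma adjusted p = 0.278). Psma5 stood at 31.5, 34.5 and 32.8 FPKM in the controls, 47.3, 39.3 and 44.6 with construct 5 and 36.3, 44.96 and 42.5 with construct 7. Replicates spread more widely here, but the groups did not overlap with the controls, and the log2 changes were 0.40 (SE 0.0974, limma adjusted p = 0.04996, just under the threshold) and 0.31 (limma adjusted p = 0.365).

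Psma4 and Psma7 also lay above the controls in every library of both constructs, with log2 changes of 0.25 and 0.23 for construct 5 and 0.20 and 0.16 for construct 7, but neither passed limma's test (adjusted p = 0.0882 and 0.0985 with construct 5). Psma6, the most abundant alpha subunit at 84.6 ± 3.77 FPKM in the controls (SD, n = 3), had 0.12 and 0.08, and its groups overlapped. Psma3, the least abundant, stood at 16.8, 16.5 and 17.1 FPKM in the controls, 17.6, 15.4 and 17.3 with construct 5 and 17.3, 17.02 and 16.6 with construct 7. Its highest and lowest values both lay in the construct 5 group, and its log2 changes were -0.01 (95% interval -0.16 to 0.14) and 0.02 (-0.13 to 0.17). Across the 7 alpha genes the median change was 0.25 with construct 5 and 0.20 with construct 7.

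In the beta ring limma called 0 of the 7 genes in any comparison. At an unadjusted p under 0.05, 2 of the 7 were higher with construct 5, beside 28.5% of all genes, and 2 with construct 7, beside 5.84%. With construct 5 that share is near the background. Those were Psmb1 and Psmb4, non-catalytic subunits, in both cases. Psmb4 stood at 79.7, 86.4 and 76.2 FPKM in the controls, 103, 92.1 and 90.4 with construct 5 and 87.4, 95.2 and 94.97 with construct 7, and Psmb1 at 77.1, 87.3 and 80.8 FPKM in the controls, 104, 90.2 and 92.4 with construct 5 and 91.6, 94.2 and 93.9 with construct 7. In both genes the siRNA libraries all lay above the controls, with log2 changes for Psmb4 of 0.23 and 0.19 and for Psmb1 of 0.22 and 0.19 (limma adjusted p from 0.0949 to 0.480). Psmb2 and Psmb3, also non-catalytic, had 0.14 and 0.11 with construct 5 and 0.09 and 0.16 with construct 7. The median of the ring was 0.12 with construct 5, beside 0.13 for all genes, and 0.14 with construct 7. With median-ratio scaling the construct 5 median fell to -0.01, with 3 of the 7 genes above 0, and that of the alpha ring to 0.12, with 5 of 7 above 0. Whether the rings differed was not tested.

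Of the 3 catalytic subunits, Psmb7 had one of the smallest differences with both constructs. Psmb5, the chymotrypsin-like subunit, stood at 69.1, 75.4 and 65.5 FPKM in the controls, 86.5, 72.5 and 70.5 with construct 5 and 65.99, 80.7 and 75.3 with construct 7. Psmb6, the caspase-like subunit, stood at 65.8, 71.4 and 68.9 FPKM in the controls, 81.2, 69.1 and 68.6 with construct 5 and 70.8, 84.2 and 73.4 with construct 7. For both, at least 1 library of each siRNA group fell within the control range, and the log2 changes were 0.12 and 0.08 for Psmb5 and 0.08 and 0.14 for Psmb6. Psmb7 stood at 160.4, 166 and 156 FPKM in the controls, 172, 151 and 162 with construct 5 and 163, 169 and 170.2 with construct 7. The construct 5 libraries spanned the whole control range and more, and the log2 changes of 0.01 (95% interval -0.15 to 0.16) and 0.05 (-0.10 to 0.21) have intervals on both sides of 0. limma adjusted p-values of the 3 catalytic genes ran from 0.430 to 0.953 with construct 5 and from 0.684 to 0.881 with construct 7. As a share of the summed core FPKM, Psmb7 made up 20.7, 20.2 and 20.3% in the controls, 18.1, 18.1 and 18.9% with construct 5 and 19.7, 18.6 and 19.2% with construct 7, every siRNA library being lower than every control. That share does not depend on how whole libraries are scaled, but it falls for any gene that rises less than the rest of the core. It was computed for Psmb7 alone, with no other gene beside it, so it shows nothing particular to Psmb7.

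**Figure D4:**
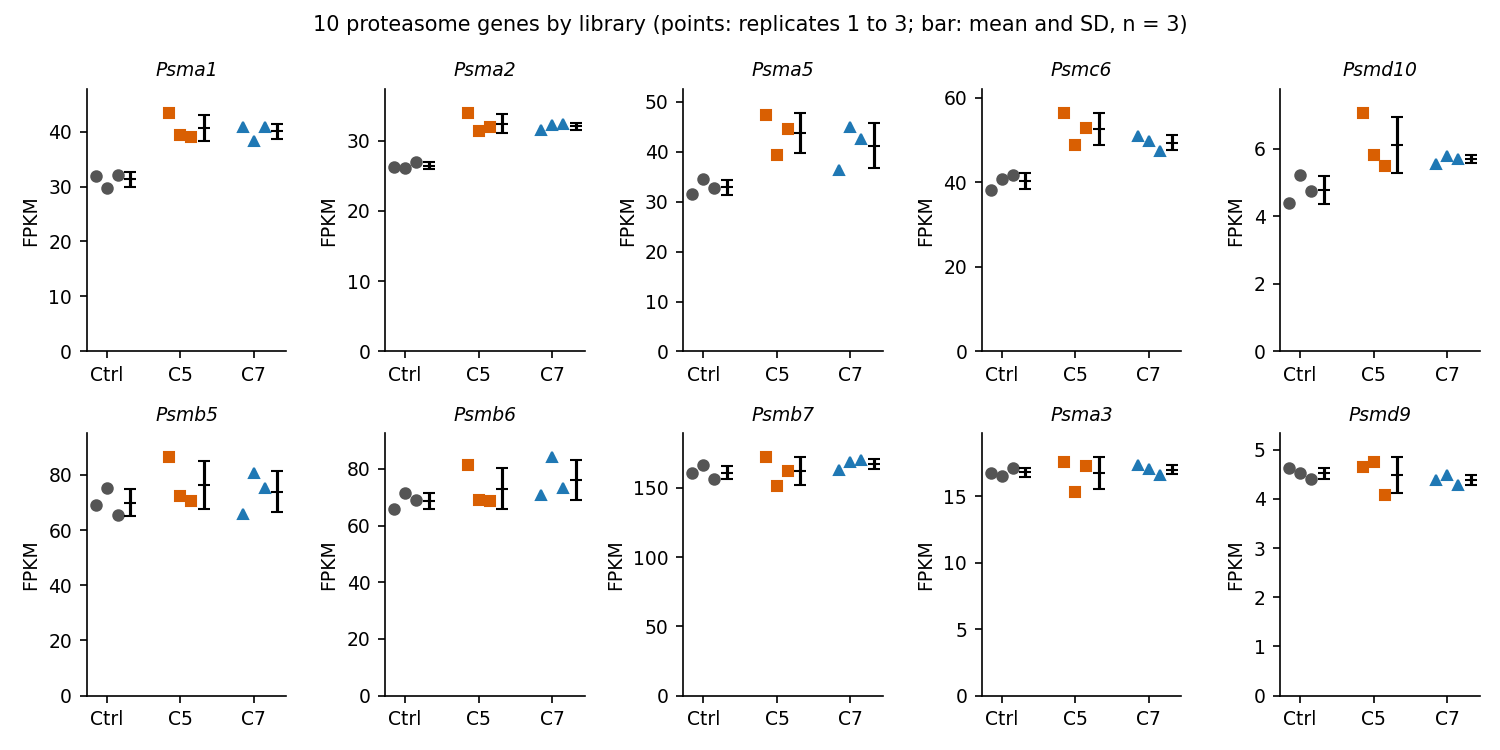
FPKM per library for 10 proteasome genes, with the mean and SD (n = 3) beside the points and axes from 0. Psma1, Psma2, Psma5, Psmc6 and Psmd10 lie above all controls in all 6 siRNA libraries, while Psmb5, Psmb6, Psmb7, Psma3 and Psmd9 overlap with the controls.

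Among the ATPases, which form the ring that threads proteins into the core, Psmc6 was the called gene. It stood at 38.1, 40.9 and 41.8 FPKM in the controls, 56.4, 48.8 and 52.8 with construct 5 and 51.1, 49.9 and 47.4 with construct 7. All siRNA libraries lay above all controls, at 131% and 123% of the control mean, with log2 changes of 0.38 (SE 0.0742, limma adjusted p = 0.0406) and 0.29 (limma adjusted p = 0.304). Psmc2, the least abundant ATPase, stood at 21.8, 23.2 and 22.5 FPKM in the controls, 28.6, 24.2 and 25.3 with construct 5 and 24.8, 26.5 and 25.6 with construct 7. It too was higher in every siRNA library than in any control, with 0.20 and 0.18 (limma adjusted p = 0.114 and 0.491). Psmc5, the most abundant at 83.2 ± 1.15 FPKM in the controls (SD, n = 3), had 0.16 and 0.09 and cleared the highest control only narrowly, its lowest siRNA library standing at 84.03 FPKM against 83.9. Psmc4 did not overlap with construct 5 (0.17) but did with construct 7 (0.13), and Psmc1 (0.18 and 0.14) and Psmc3 (0.13 and 0.10) overlapped with both.

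Of the 14 Psmd genes limma called 0 in any comparison, with 7 higher at an unadjusted p under 0.05 with construct 5 and 2 with construct 7, beside 28.5% and 5.84% of all genes. In the base, the scaffold Psmd2 stood at 50.7, 60.1 and 55.1 FPKM in the controls, 72.5, 63.2 and 62.3 with construct 5 and 64.2, 67.9 and 66.5 with construct 7. Both siRNA groups lay above the controls, by 0.25 and 0.26 (limma adjusted p = 0.0946 and 0.390). The ubiquitin receptor Psmd4 stood at 35.3, 39.02 and 37.1 FPKM in the controls, 51.8, 40.5 and 44.6 with construct 5 and 39.8, 45.3 and 42.2 with construct 7. It likewise did not overlap, with 0.28 and 0.19 (limma adjusted p = 0.0936 and 0.597). Psmd1, the other large scaffold, had 0.16 and 0.17, and construct 7 replicate 3, at 33.7 FPKM, fell below control replicate 2, at 33.9.

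In the lid, Psmd11, whose product is known to limit assembly of the full particle in some cells, stood at 13.2, 14.4 and 13.1 FPKM in the controls, 19.3, 15.6 and 16.02 with construct 5 and 14.3, 16.2 and 17.02 with construct 7. Construct 5 lay wholly above the controls and construct 7 replicate 1 within them, with 0.30 and 0.21 (limma adjusted p = 0.0844 and 0.550). Psmd6, a scaffold subunit, had 0.22 and 0.14, and the deubiquitinase Psmd14 0.11 and 0.17, each clear of the controls with construct 7 but not with construct 5. Psmd3 and Psmd7, structural subunits, were clear of the controls with both, at 0.13 and 0.20 with construct 5 and 0.11 and 0.12 with construct 7. Psmd12 and Psmd13, also structural, overlapped with both, at 0.07 and 0.18 with construct 5 and 0.13 and 0.15 with construct 7. Psmd8 stood at 102, 119 and 84.9 FPKM in the controls, 126, 83.6 and 109.7 with construct 5 and 87.3, 117 and 104 with construct 7. Its spread within each group was as wide as any difference between them, and its log2 changes of 0.05 (95% interval -0.34 to 0.44) and 0.01 (-0.38 to 0.41) are the least precise of the family.

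The 3 assembly chaperones with Psmd names differed among themselves. Psmd10, known as gankyrin, stood at 4.39, 5.22 and 4.74 FPKM in the controls, 7.06, 5.80 and 5.49 with construct 5 and 5.56, 5.79 and 5.70 with construct 7. Every siRNA library exceeded every control, with 0.29 and 0.21 (limma adjusted p = 0.0790 and 0.517). Psmd5 stood at 4.80, 4.92 and 4.60 FPKM in the controls, 7.30, 5.54 and 5.27 with construct 5 and 4.43, 6.02 and 5.29 with construct 7. Construct 5 was clear of the controls and construct 7 was not, replicate 1 being the lowest of all 9, with 0.28 and 0.11. Psmd9 stood at 4.63, 4.52 and 4.41 FPKM in the controls, 4.64, 4.74 and 4.07 with construct 5 and 4.38, 4.48 and 4.28 with construct 7. All 3 groups overlapped, and its log2 changes of -0.01 (95% interval -0.16 to 0.14) and -0.04 (-0.19 to 0.11) were the lowest of the 34 in both comparisons.

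Between the 3 classes the medians were close. Core, ATPase and non-ATPase genes had medians of 0.18, 0.18 and 0.19 with construct 5 and of 0.16, 0.13 and 0.14 with construct 7, beside 0.13 and 0.02 for all genes. With median-ratio scaling they were 0.04, 0.04 and 0.05, and 0.13, 0.11 and 0.12. Within each class the range was far wider than these gaps, from -0.01 to 0.40 in the core, 0.13 to 0.38 among the ATPases and -0.01 to 0.30 among the Psmd genes with construct 5. Single libraries moved some of these medians by over 1.5 times: with construct 5 and without its replicate 1 the ATPase and non-ATPase medians were 0.11 and 0.11, and with construct 7 and without its replicate 2 the ATPase median was 0.0593.

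The constructs were compared directly as well. For each gene this difference, construct 7 minus construct 5, does not involve the controls. limma called 0 of the 34 genes, against 1.22% of all genes in either direction; 0 of the 34 and 23.1% of all genes had an unadjusted p under 0.05. Differences ran from -0.17 for Psmd5 (95% interval -0.44 to 0.11) to 0.07 for Psmd14 (-0.12 to 0.26), with a median of -0.04 beside -0.10 for all genes. The constructs lay within 0.1 of each other in 33 of 34 genes as deposited, beside 39.7% of all genes. With median-ratio scaling they did so in 26 of 34, where Psmd14 reached 0.17 and the share of all genes was not counted. As deposited, the median of all genes, -0.10, lies at the edge of that window. A shift of whole libraries alone thus takes many genes out of it. The share of all genes was also not matched to the family for level. The 39.7% therefore cannot decide whether the constructs were closer in this family than elsewhere. The 95% intervals, as deposited, reach from -0.44 to 0.35 over the family, so differences of that size are not shut out for its least precise genes. With median-ratio scaling the median turned to 0.07, beside -0.01 for all genes, and 33 of 34 genes were higher with construct 7. limma called none of them (lowest adjusted p = 0.296). Of the 34, 0 had an unadjusted p under 0.05, a share not counted over all genes on that scale.

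The partners of the proteasome were read from lists of related genes. Of all genes, limma called 4.67% higher with construct 5 and 0% with construct 7. At an unadjusted p under 0.05, 28.5% and 5.84% of all genes were higher, and the share lower was not counted. The counts below are to be read beside these shares. Of 6 further subunits and bound proteins, limma called 0 with either construct (3 higher with construct 5 and 1 with construct 7 at an unadjusted p under 0.05). Usp14, a deubiquitinase that docks on the base, went from 6.84 ± 0.651 to 8.85 ± 0.958 and 8.49 ± 0.457 FPKM (SD, n = 3), with 0.33 and 0.28 (limma adjusted p = 0.0620 and 0.386). The ubiquitin receptor Adrm1 had 0.23 and 0.13. Of 5 activators and inhibitors, limma called 0, with 1 higher at an unadjusted p under 0.05 in each comparison: Psme1, a subunit of the ring-shaped activator that opens the core, with 0.24 and 0.22. Psme4, a single-chain activator, had -0.17 and -0.07. Of the 5 core assembly chaperones limma also called 0 (2 higher with construct 5 and 1 lower with construct 7 at an unadjusted p under 0.05), among them Psmg2 (0.22 and 0.03), Psmg4 (0.19 and 0.11) and Psmg3 (-0.04 and -0.18).

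The immunoproteasome genes, whose subunits take the place of the catalytic ones in immune cells and under interferon, had positive values with construct 5 and not with construct 7. Psmb8 stood at 2.88, 2.39 and 2.19 FPKM in the controls, 3.39, 4.53 and 2.63 with construct 5 and 1.74, 3.38 and 2.22 with construct 7. The log2 changes were 0.36 and -0.04 for Psmb8, 0.34 and -0.02 for Psmb9 and 0.14 and -0.01 for Psmb10. limma called 0 of the 3 with either construct, with 1 (Psmb9) higher at an unadjusted p under 0.05 with construct 5 and 0 with construct 7. Psmb9 averaged 0.846 FPKM in the controls, 1.36 with construct 5 and 0.825 with construct 7. Its construct 5 level alone carried it over the minimum of 1 FPKM. Being tested thus depended on the same high values, so no conclusion is drawn from its unadjusted p. Of 10 factors that act on proteasome genes or on Nfe2l1, limma called 1, with construct 5, beside 4.67% of all genes called higher. That was Nfe2l2, a relative of Nfe2l1 known for the antioxidant response, at 8.57, 7.34 and 7.83 FPKM in the controls, 11.7, 11.2 and 11.3 with construct 5 and 9.60, 10.1 and 9.89 with construct 7. Both siRNA groups lay above the controls, with 0.48 (limma adjusted p = 0.0344; 0.0533 with median-ratio scaling, from 0.0540 to 0.138 without control replicate 1, 2 or 3, construct 5 replicate 1 or 2, or construct 7 replicate 3) and 0.29 (limma adjusted p = 0.278). Nfe2l1 itself, abundant at 123 ± 7.79 FPKM in the controls (SD, n = 3), had -0.07 and -0.14, and the protease Ddi2, which activates its protein, 0.24 and 0.28, neither passing the test. At an unadjusted p under 0.05 from limma, 6 of the 10 factors were higher with construct 5 and 2 with construct 7. Beside these stand 28.5% and 5.84% of all genes. With median-ratio scaling the counts were 2 and 2, with no share of all genes counted.

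Of 12 genes of ubiquitin supply and delivery that reached 1 FPKM, out of 14 in the table, limma called 0 with either construct. At an unadjusted p under 0.05, 3 were higher with construct 5, and 1 was higher and 1 lower with construct 7. Beside these stand 28.5% and 5.84% of all genes higher, so the construct 5 count is near the background. Rps27a, which encodes ubiquitin fused to a ribosomal protein, had 0.29 and -0.01, and Ufd1l, a cofactor of the segregase Vcp, 0.19 and 0.08. Nploc4, its partner, had 0.21 and 0.31, and the shuttle factor Ubqln4 -0.12 and -0.24. The median of this list was 0.15 with construct 5 and 0.10 with construct 7.

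Of the markers of other cells, the summed macrophage and fibroblast lists were higher with construct 5 than in the controls, without overlap. The summed FPKM of 17 macrophage markers, none of them at 0 in every library of a group, was 139.7 to 205 in the controls, 229.8 to 414 with construct 5 and 111 to 178 with construct 7. Of the 14 that reached 1 FPKM, all 14 had values above 0 with construct 5 and 2 with construct 7, and limma called 2 and 0 higher, beside 4.67% and 0% of all genes. With median-ratio scaling it called 0 with construct 5, where 14 of 14 lay above 0. The sum of 10 fibroblast markers was 403 to 477 FPKM in the controls, 516 to 811 with construct 5 and 317 to 348 with construct 7. The part of both lists in the proteasome values was not tested. Endothelial sums were 109 to 127, 105 to 137 and 109 to 121 FPKM in the 3 groups, adipocyte sums 264 to 319, 293 to 377 and 254 to 302, and Schwann cell and nerve marker sums 18.98 to 32.2, 14.5 to 26.7 and 17.9 to 29.6. The adipocyte sums were mostly Fabp4, at a mean of 275 FPKM in the controls. Adipoq, Cfd, Cidec, Lep and Plin1, all far lower, averaged from 313% (Cfd) to 634% (Lep) of the control with construct 5. With construct 7 they averaged from 72.6% (Plin1) to 99.8% (Cidec). Construct 5 replicate 2 was the highest library for each, with Cfd at 53.5 FPKM against 8.12 and 12.9 in replicates 1 and 3. The 8 muscle markers summed to 63845 to 66557 FPKM in the controls, 57174 to 64111 with construct 5 and 53257 to 66259 with construct 7, and limma called 0 of the 8 with either construct (1 lower in each at an unadjusted p under 0.05). With each construct 4 of the 8 had values above 0 and 4 below, with medians of -0.02 and 0.03 and highest values of 0.41 and 0.58. Acta1, among those below, lay under every control in every siRNA library, as did 156 of all 10794 genes. It stood at 91.1% and 79.2% of the control mean, with log2 changes of -0.14 and -0.35 (limma adjusted p = 0.447 and 0.406). The part of these markers in the proteasome values was not tested either.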

How the data were processed

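RNA sequencing of 9 libraries was analysed from 1 table of FPKM values that the authors deposited. The submitters' processing notes name BWA, STAR, HTSeq and the mouse build mm9; their order, versions, annotation and strand setting are not given in the sources used here. Groups came from the sample labels. Values were tested as log2(FPKM + 1) with limma 3.58.1 in R 4.3.3 (group means over all 9 libraries, trended variance, 10794 genes with a mean of at least 1 FPKM, Benjamini-Hochberg adjustment within each comparison, calls at adjusted p under 0.05). The unit called for no count model; depth (29300000 to 45600000 reads) was read from FPKM steps, with gene lengths of GENCODE M21, and 1992 of 4103 low genes fitted the common depth. The fit was tested on simulated data. Genes were named by a fixed rule: called genes, highest and lowest levels and smallest p per role, and the catalytic subunits; other subunits are given for completeness. Members, gene lists and tests were chosen with earlier results of these data known. Alternatives covered pseudocounts, filters, scaling, the replicate block and each left-out library.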

Additional observations from a re-analysis of the deposited data

How the results depend on the processing

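Against the 4 genes called with construct 5, limma called 0 with no filter on low values, with median-ratio scaling, with quantile normalization, with the libraries of that comparison alone, and with the replicate block, with or without median-ratio scaling, and 0 to 4 when single libraries were left out. Median-ratio scaling, with or without the replicate block, moved the median changes with construct 5 to 0.0445 (core), 0.0404 (ATPase) and 0.0550 (non-ATPase), the core median for both constructs to 0.0858, and the medians of construct 7 minus construct 5 to 0.0747, 0.0649 and 0.0667, opposite in sign to the values as deposited. That scaling takes most of the shift of all genes out of the construct 5 values by construction. Leaving out single libraries, on either scale, gave core, ATPase and non-ATPase medians of 0.00715 to 0.210, 0.00887 to 0.236 and 0.00694 to 0.246 with construct 5, 0.108 to 0.197, 0.0314 to 0.194 and 0.0859 to 0.185 with construct 7, 0.0646 to 0.193, 0.0299 to 0.190 and 0.0552 to 0.213 for both, and -0.0573 to 0.116, -0.101 to 0.109 and -0.0933 to 0.0974 for construct 7 minus construct 5. The limma adjusted p of Ubr4 was 0.0523, 0.0976 and 0.0677 for construct 5, construct 7 and both with no filter, and 0.00767 to 0.0956, 0.00693 to 0.0877 and 0.00286 to 0.0544 with single libraries left out; the cause was not tested. The labels do not say whether same-numbered libraries were paired. Same-numbered deviations correlated from -0.36 to 0.31, and the best match was the own number in 6 of 18 cases. With so few libraries a group, this check cannot decide whether libraries were paired. The replicate block is therefore an alternative only. Nothing was called for construct 7, both constructs or construct 7 against construct 5 among the 34 genes in the fit as reported; counts at an unadjusted p stand in the results.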
